A study of Homo sapiens with 4 samples.

Results

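The regions described here are the H3K9me3 peaks on both sides of the centromere of chromosome 10 in the established endometrial cancer line Ishikawa, of human origin. They were chosen by position alone, as every called peak whose summit lay between 33700000 and 47200000 of chromosome 10 (hg38), a window of 13.5 Mb. Of 4950 peaks in both deposited lists, 237 met this rule. The NC list held 43 of them among its 1165 peaks, and the OE-KDM4A list held 194 of 3785.

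Chromatin was profiled by ChIP-seq for H3K9me3 in cells labelled NC, with no treatment, and in cells labelled OE-KDM4A, the histone demethylase gene KDM4A being named as the treatment. The labels do not say how KDM4A was raised, nor whether the cells were 1 clone or a pool. A ChIP library, an input library and 1 list of ChIP peaks represent each of the 2 conditions. Differences between the lists therefore have no replicate check, and no test was run on them. Intervals are exact (Clopper-Pearson) 95% intervals that cover counting error only, and neighbouring peaks are not independent of each other.

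H3K9me3 is the trimethylated form of lysine 9 on histone H3. It is written on satellite repeats around centromeres mainly by the SUV39H enzymes, is bound by HP1 proteins and keeps these repeats compact and silent. KDM4A removes methyl groups from this lysine. KRAB zinc finger genes, many of which lie in clusters, are a further known site of the mark, and the pericentromere of chromosome 10 carries such genes on both arms. Reads from near-identical repeat copies can be placed at any of the copies, so the source copy of the peaks described here is uncertain.

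Peaks of both lists sat in the middle of the window, where RefSeq places no gene. The longest gene-free stretch of the chromosome ran from 38719383 to 42149318, a length of 3.43 Mb between the pseudogenes CHEK2P5 and KSR1P1. In NC it contained 39 of the 43 peaks (90.7%, 77.9 to 97.4), and in OE-KDM4A 180 of 194 (92.8%, 88.2 to 96.0). The density there was 11.4 peaks per Mb in NC and 52.5 per Mb in OE-KDM4A. On the short arm side the densities were 0.398 and 1.79 per Mb, and on the long arm side 0.396 and 0.990 per Mb. All regions found in both lists lay inside the gene-free stretch.

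**Figure D1:**
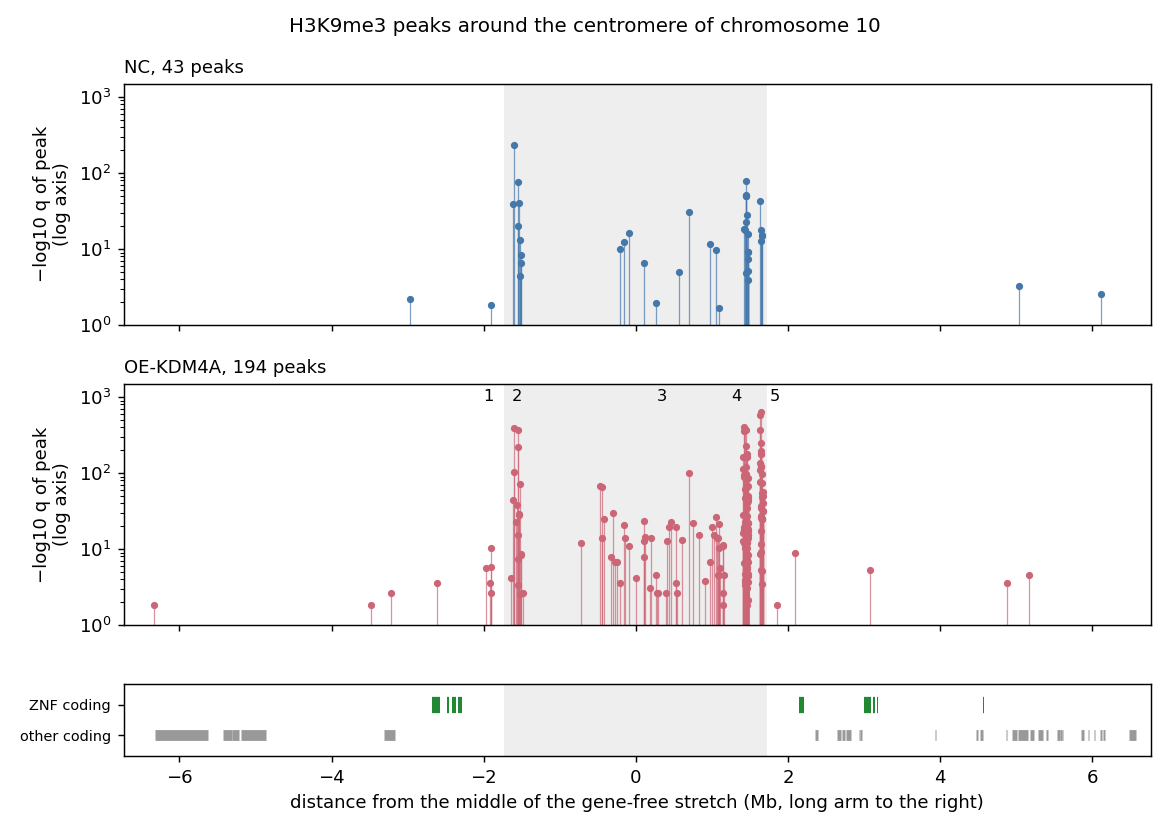
Each point is a peak, placed by the distance of its summit from the middle of the gene-free stretch (grey) in Mb, with its −log10 q on a log axis, for NC (top) and OE-KDM4A (middle); digits number the 5 blocks, and the bottom track shows protein-coding genes. Peaks stand in narrow columns at both edges of the grey stretch and are spread out between them, while the zinc finger genes lie outside it.

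The window made up 3.69% of the NC list (2.68 to 4.94) and 5.13% of the OE-KDM4A list (4.44 to 5.88). The ratio of peak numbers, OE-KDM4A over NC, was 4.51 (3.23 to 6.43), against 3.25 (3.04 to 3.47) over the whole series. Outside the window, chromosome 10 had 32 NC and 91 OE-KDM4A peaks, a ratio of 2.84 (1.88 to 4.4). At a −log10 q of at least 10 the window ratio was 5.29 (3.40 to 8.56), from 24 and 127 peaks, and the whole-series ratio was 2.42 (2.13 to 2.76), from 328 and 794. At the same threshold the chromosome 4 window described next gave 2.29 (1.62 to 3.27). The longest gene-free stretch of chromosome 4 with 5 Mb on each side, a window of 12.2 Mb, gave 2.50 (1.87 to 3.38). Windows built in the same way on chromosomes 1, 9 and 16 (31.7, 27.7 and 20.4 Mb) together gave 2.71 (2.1 to 3.53). Whether the ratios of these windows differ was not tested. With peaks at most 1 kb apart joined, the chromosome 10 window held 36 NC and 104 OE-KDM4A peaks. Without blocks 4 and 5, described below, it held 23 and 83. The window ratio thus depends on how crowded stretches are split into peaks, and joined counts over the whole series were not calculated.

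Joined over both lists, the peaks fell into 5 blocks, with 13 isolated peaks beside them. A block is a run of peaks with no gap over 120 kb, a limit set after the positions were seen, and any limit from 101 to 133 kb gave the same blocks. With gaps of up to 500 kb, blocks 1 and 2 were joined, as were blocks 3 to 5. Every block held peaks of both lists.

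Block 1 lay outside the gene-free stretch, from 38465397 to 38529870, with the pseudogene SEPTIN14P10 as its nearest gene. It held 5 OE-KDM4A peaks and 1 NC peak. The NC peak, from 38527540 to 38527768, had a fold enrichment of 2.60. It fell in the space between 2 OE-KDM4A peaks, 83 bp from one and 115 bp from the other, and overlapped neither. Next to it lay the widest OE-KDM4A peak of the window, from 38528306 to 38529870, which measured 1565 bp and had 6 summits. Its summits had fold enrichments from 2.25 to 4.98 and −log10 q values from 2.38 to 10.4, all below the window's OE-KDM4A median of 17.0.

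Block 2 opened the gene-free stretch on the short arm side, from 38786316 to 38949660. It held 9 NC and 18 OE-KDM4A peaks, a ratio of 2.0 (0.853 to 5.05). The strongest NC peak of the window was here, from 38835684 to 38835821, with a −log10 q of 235.7 and a fold enrichment of 5.61. The OE-KDM4A list had a peak at the same place, from 38835649 to 38835832, with a −log10 q of 391.8 and a fold enrichment of 12.3. The summits of these peaks were 1 bp apart. A peak of OE-KDM4A from 38878861 to 38879039 was about as strong, with a −log10 q of 364.7, and had no NC peak within 9000 bp. Conversely, a pair of NC peaks at 38911599 to 38911742 and 38911998 to 38912132 stood 5766 and 6165 bp from the nearest OE-KDM4A peak. Block 2 thus held strong peaks shared by both lists together with peaks that 1 list alone contained.

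A peak with 3 summits at the end of block 2 recurred in both lists. In NC it ran from 38919675 to 38920159, with summits at 38919705, 38919906 and 38920020. In OE-KDM4A it ran from 38919597 to 38920073, with summits at 38919697, 38919912 and 38920024. The summits lay 8, 6 and 4 bp from their counterparts, although the fold enrichment was no higher than 2.68 in NC and 3.30 in OE-KDM4A.

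Block 3 was the long middle section, from 39967515 to 41587073, with the widest average spacing of any block in both lists. Over 1620 kb it held 10 NC and 50 OE-KDM4A peaks, on average 1 per 162 kb and 1 per 32.4 kb. None of the 10 NC peaks and 23 of the 50 OE-KDM4A peaks had a neighbour of the same list within 10 kb. The whole-list shares were 25.8% and 29.0%. The 10 NC peaks are too few to set their share apart from that of the list, and the OE-KDM4A share was above that of its list. No interval was calculated for these shares of the block. Which parts of this section are alpha satellite, the repeat on which the kinetochore forms, was not analysed here. Its strongest peak in both lists had summits 1 bp apart. In NC it ran from 41133845 to 41133974 with a −log10 q of 31.0 and a fold enrichment of 5.67. In OE-KDM4A it ran from 41133832 to 41134001 with a −log10 q of 100.5 and a fold enrichment of 37.3. The next OE-KDM4A peaks by −log10 q, at 39967515 to 39967714 (68.2) and 39986399 to 39986588 (64.7), overlapped no NC peak. The first NC peak of the block began further in, at 40221306.

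Block 4 was the most crowded, from 41845606 to 41915209. Its 69.6 kb held 15 NC and 76 OE-KDM4A peaks, or 2.16 and 10.9 per 10 kb, and the ratio was 5.07 (2.89 to 9.49). The OE-KDM4A peaks covered 24.0% of its length and the NC peaks 3.42%. It contained the peak with the highest fold enrichment of the window, from 41851667 to 41851945 in OE-KDM4A, at 102.9 (−log10 q 401.2). The nearest NC peak was 850 bp away. An OE-KDM4A peak at 41859850 to 41859979 had nearly the same −log10 q, 361.3, with a fold enrichment of 3.51. Strength by q and strength by fold therefore ranked the peaks of block 4 differently.

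Block 5 closed the gene-free stretch on the long arm side, from 42066421 to 42104777. It held 5 NC and 35 OE-KDM4A peaks in 38.4 kb, a ratio of 7.0 (2.73 to 22.9). The OE-KDM4A peaks covered 39.1% of its length, against 2.23% for NC. The strongest OE-KDM4A peak of the window lay here, from 42078906 to 42080085, with a −log10 q of 633.8 and a fold enrichment of 57.1. It overlapped no NC peak, but one ended 230 bp before it. The OE-KDM4A peak ranked next, from 42070007 to 42071262 (−log10 q 586.7, fold enrichment 26.9), contained a whole NC peak, from 42070505 to 42070628, with a −log10 q of 42.6 and a fold enrichment of 2.46. Before that first NC peak the block already held strong OE-KDM4A peaks, such as 42067108 to 42067886 with a fold enrichment of 55.6.

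**Figure D2:**
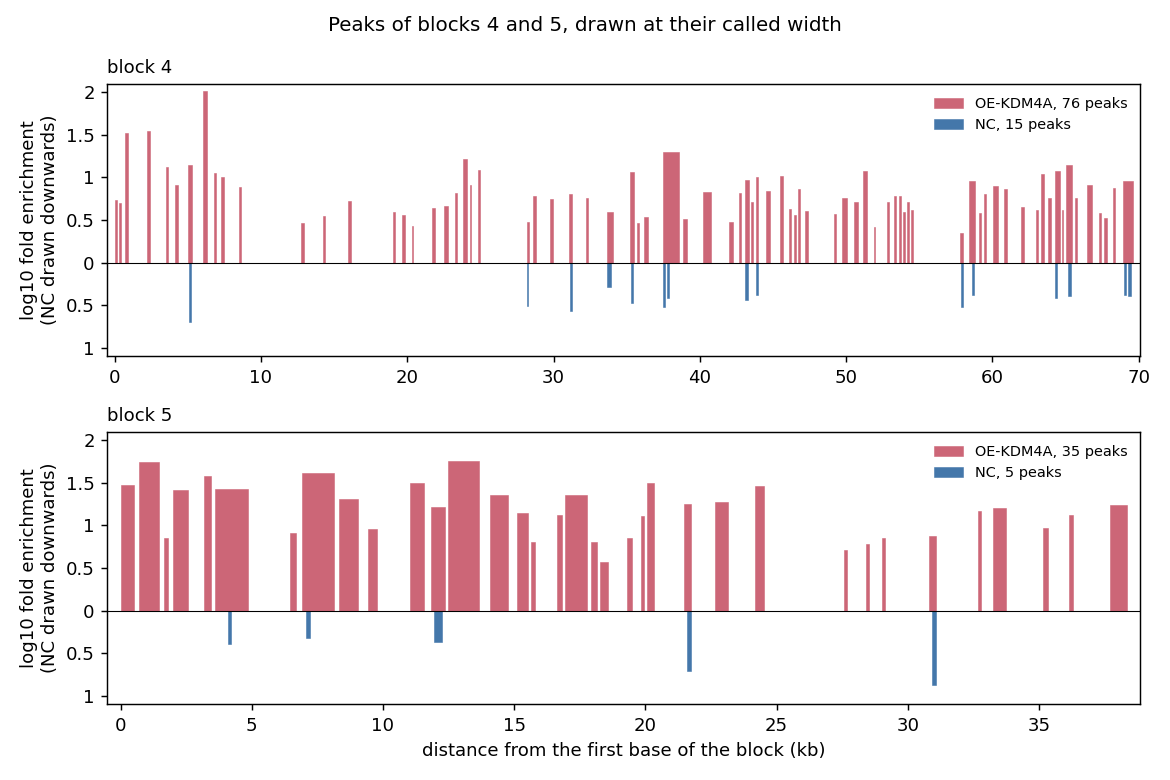
Bars show the peaks of block 4 (top) and block 5 (bottom) at their called width along the block in kb, with the log10 of the fold enrichment upwards for OE-KDM4A and downwards for NC. Block 4 holds 76 OE-KDM4A and 15 NC bars, block 5 holds 35 and 5, and each NC bar faces an OE-KDM4A bar.

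The strongest peaks were divided among the blocks in a different way in each list. Of the 10 NC peaks with the highest −log10 q, 4 lay in block 2, 4 in block 4, and 1 each in blocks 3 and 5. Of the 10 OE-KDM4A peaks, 4 lay in block 5, 4 in block 4 and 2 in block 2. The NC values ran from 31.0 to 235.7 and those of OE-KDM4A from 252.3 to 633.8, so these ranges did not overlap. The lists differ in length and library depth is unknown, so no difference in the strength of the mark can be read from this. Among the 10 OE-KDM4A peaks, 4 overlapped an NC peak and 6 did not. Those 6 were within 230 to 9033 bp of one.

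Clustering was measured as the share of peaks with another peak of the same list within 10 kb. In the window it was 25 of 43 in NC (58.1%, 42.1 to 73.0), beside 25.8% of the whole NC list. In OE-KDM4A it was 152 of 194 (78.4%, 71.9 to 83.9), beside 29.0% of the whole list. Outside the window on chromosome 10 it was 12.5% in NC (4 of 32) and 7.69% in OE-KDM4A (7 of 91). Without blocks 4 and 5 the window shares fell to 26.1% and 49.4%, and the NC share was then close to that of the whole list. The 6 clustered NC peaks that remained were all among the 9 of block 2. The chromosome 4 window had 69.7% (57.1 to 80.4) and 80.6% (73.7 to 86.3), intervals that overlap those of chromosome 10.

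As clusters, the peaks of blocks 4 and 5 were among the largest of the OE-KDM4A list. Each block formed 1 unbroken cluster, with 76 and 35 peaks, which ranked 2 and 4 by size among the 97 OE-KDM4A clusters of 3 or more peaks. In NC block 4 was broken into clusters of 8 peaks (41873762 to 41889597) and 6 peaks (41903421 to 41915059), ranked 9 and 11 of 34 (ties share a rank). The 5 NC peaks of block 5 formed another, from 42070505 to 42097498. The other OE-KDM4A clusters of 5 or more held 9 peaks in block 2 (38878861 to 38905832), and 7 (41502867 to 41533909) and 5 (41574586 to 41587073) at the long arm end of block 3.

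Peaks were short in NC and reached greater widths in OE-KDM4A, mostly in block 5. Whole-list median widths were 142 bp for NC and 135 bp for OE-KDM4A. The median width in the window was 141 bp in NC, with quartiles of 132 and 170.5, and 170.5 bp in OE-KDM4A, with quartiles of 135 and 252.5. The shortest peaks in the whole lists measured 121 bp and 108 bp, so many peaks were near the shortest that was called. Block by block, the OE-KDM4A median was 150 bp in block 2, 150.5 bp in block 3, 183 bp in block 4 and 302 bp in block 5. The NC medians in the same blocks stayed between 137 and 144 bp. In OE-KDM4A 17 of 194 peaks were wider than 500 bp (8.76%, 5.19 to 13.7), beside 2.99% of the whole list, and 12 of them lay in block 5, 3 in block 4 and 2 in block 1. In NC 0 of 43 were (interval 0 to 8.22%), beside 0.429% of the whole list, so no shortage of wide NC peaks can be read from this. The chromosome 4 window had 10.9% (6.59 to 16.7) in OE-KDM4A, and chromosomes 1, 9 and 16 had 17.5% (12.8 to 23.1). The widest NC peak was the one with 3 summits described above, at 485 bp.

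**Figure D3:**
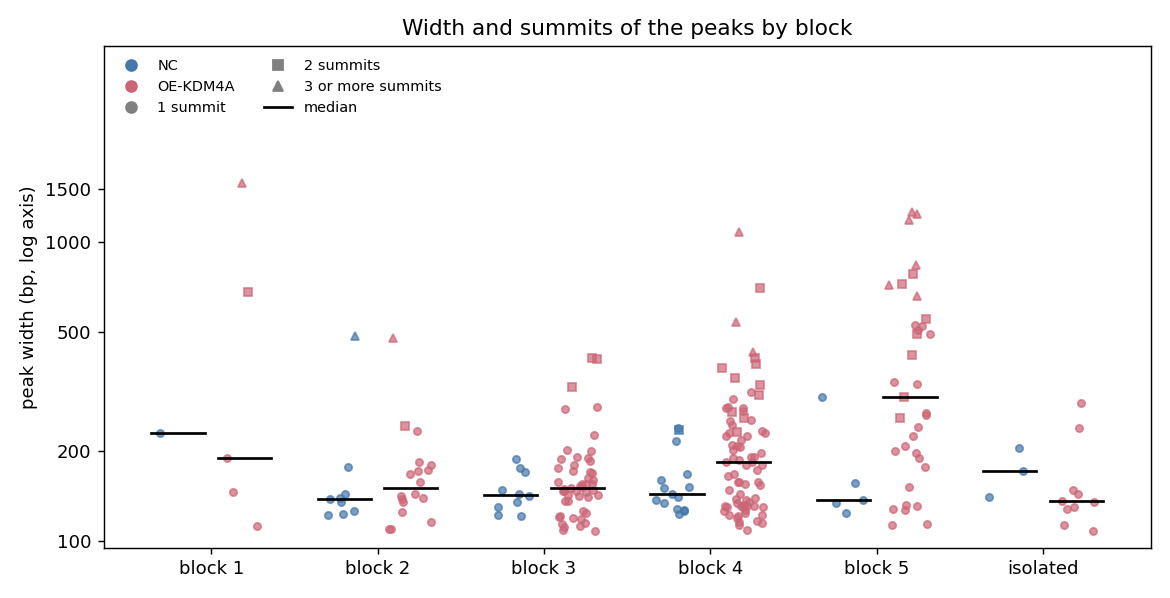
Each point is a peak with its width in bp on a log axis, by block and list, with the marker showing the number of summits and the black line the median. The OE-KDM4A median rises from 150 bp in block 2 to 302 bp in block 5, where 12 peaks are wider than 500 bp, and the NC medians of blocks 2 to 5 stay at or below 144 bp.

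Among blocks 2 to 5 of OE-KDM4A, peaks with several summits were also most frequent in block 5. The counts of blocks 1 and 2 are too small to rank these blocks. In NC 2 of 43 peaks had 2 or more summits (4.65%, 0.568 to 15.8), beside 4.55% of the whole list. In OE-KDM4A 33 of 194 did (17.0%, 12 to 23.1), beside 5.68% of the whole list. The chromosome 4 window had 20.6% (14.7 to 27.6), and the windows of chromosomes 1, 9 and 16 had 23.2% (17.9 to 29.3). Both intervals overlap that of chromosome 10. Of the 33 peaks here, 26 lay in blocks 4 and 5. Without those blocks the share was 8.43% (7 of 83). In block 5 it was 37.1% (13 of 35), in block 4 17.1% (13 of 76) in block 3 6% (3 of 50), in block 2 11.1% (2 of 18) and in block 1 40% (2 of 5). Of the 33 peaks, 22 had 2 summits, 9 had 3, 1 had 4 and 1 had 6. Summits within a peak were a median of 222.5 bp apart, from 94 to 584 bp. Peaks with several summits had a median width of 427 bp and the others 154 bp. The peak with 4 summits, from 41883074 to 41884150 in block 4, spanned a pair of separate NC peaks, at 41883114 to 41883241 and 41883366 to 41883525.

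Most NC peaks of the window were also called in OE-KDM4A, and most OE-KDM4A peaks had no NC partner. Of the NC peaks, 34 of 43 (79.1%, 64.0 to 90.0) overlapped an OE-KDM4A peak by at least 1 bp, beside 34.7% of the whole NC list. Of the OE-KDM4A peaks, 32 of 194 (16.5%, 11.6 to 22.5) overlapped an NC peak, beside 10.2% of the whole list. In blocks 4 and 5 all 20 NC peaks had a partner, in block 2 it was 7 of 9, and in block 3 it was 7 of 10. None of the 4 NC peaks of block 1 and the isolated peaks had one. The OE-KDM4A share within 10 kb of an NC peak was 73.2%, and among the 162 peaks without a partner it was 110. Blocks 4 and 5 measure 69.6 and 38.4 kb and hold 15 and 5 NC peaks, so this limit is easily met there. The same share over the whole list was not calculated, so no relation to NC peaks can be read from it. The overlapping NC share was 93.9% (85.2 to 98.3) in the chromosome 4 window and 78.6% (68.3 to 86.8) on chromosomes 1, 9 and 16. For OE-KDM4A the same windows had 37.0% (29.6 to 44.8) and 26.8% (21.1 to 33.0).

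Within the NC list, peaks with a partner had a median −log10 q of 16.04 and peaks without one 3.25. Within OE-KDM4A the medians were 45.0 and 14.0. Where a region was called in both lists, its position was mostly kept to within a few bases. At these 34 regions the nearest OE-KDM4A summit was a median of 6 bp away and at most 105 bp. Of the 46 NC summits in the window, 31 lay within 10 bp of an OE-KDM4A summit and 36 within 50 bp, with a median distance of 8 bp. The rest lay from 105 to 939719 bp away. The same shares over the whole series were not calculated.

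Most regions of both lists had a higher fold enrichment in OE-KDM4A, as did most such regions of the whole series, while the ChIP pileup was close. The pileup is the number of stacked fragments at the summit, and the background is the level the peak caller expected there. Whether that level was taken from the input libraries is not stated, so what a background or a fold enrichment is relative to is uncertain. Both were recovered from the deposited fold enrichment and −log10 p by the formulas MACS2 is known to use. Each peak has the values of its summit of highest −log10 q. This choice can favour OE-KDM4A, where peaks with several summits were more frequent. At 30 of 34 regions (88.2%, 72.5 to 96.7) OE-KDM4A had the higher fold enrichment, beside 78.7% of such regions over the whole series, with medians of 3.33 in NC and 9.63 in OE-KDM4A. The background was lower in OE-KDM4A at 30 of 34, beside 81.4%, with medians of 21.3 and 7.78. The median pileup was 82 in NC and 83.5 in OE-KDM4A, a median log2 difference of 0.21, against −1.55 for the background. Both shares are near those of the whole series. With the OE-KDM4A summit nearest to the NC summit, 28 regions had the higher fold enrichment in OE-KDM4A and 29 the lower background, and the median log2 pileup difference was 0.11. The depth of the libraries is unknown, so these levels are not scaled to each other.

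The direction of the pileup difference varied with the block. The share of such regions over the whole series was not calculated for pileup, and the levels are not scaled for depth. In blocks 4 and 5 the pileup was higher in OE-KDM4A at 15 of 15 and 5 of 5 regions, with median log2 differences of 0.28 and 0.38. The 15 regions of block 4 were matched to 13 OE-KDM4A peaks. In blocks 2 and 3 it was higher at 1 of 7 and 2 of 7, with medians of −0.29 and −0.16. With the nearest summit, the counts in blocks 4, 5, 2 and 3 were 13 of 15, 5 of 5, 1 of 7 and 2 of 7. The median background was lower in OE-KDM4A in each of the 4 blocks, with log2 differences of −1.25, −1.50, −1.67 and −2.51 in blocks 2 to 5. The largest difference in fold enrichment was at the NC peak from 42073502 to 42073638 in block 5, at 2.12 in NC and 41.4 in OE-KDM4A. The pileups there were 162 and 197, and the backgrounds 75.8 and 3.78. With the summit of highest −log10 q, the 4 regions with the higher fold enrichment in NC lay in blocks 3 and 4. With the nearest summit they were joined by 2 in block 2, the NC peaks starting at 38919017 (3.16 against 2.44) and at 38919675 (2.28 against 2.07). In block 3 the NC peak at 40221306 to 40221446 had 7.40 against 5.25, and that at 40345456 to 40345643 had 9.62 against 7.82. In block 4 the NC peak at 41873762 to 41873887 had 3.21 against 2.98, and that at 41903421 to 41903571 had 3.34 against 2.24. At both regions of block 4 the background was the higher one in OE-KDM4A, 43.6 against 29.8 and 42.8 against 23.8, and at both of block 3 it was the lower.

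**Figure D4:**
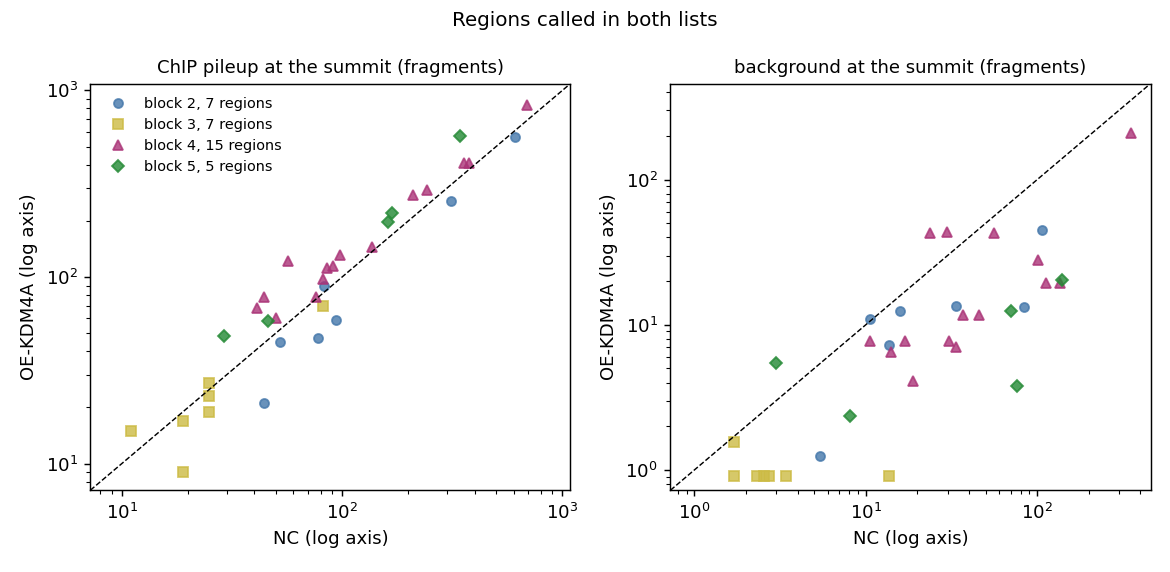
Each point is 1 of 34 regions called in both lists, with its ChIP pileup (left) or background (right) at the summit in fragments, NC on the x axis and OE-KDM4A on the y axis, both log axes; the dashed line marks equal values. The OE-KDM4A values are those of the summit of highest −log10 q in the overlapping peak. Pileups lie near the line, above it at all 20 regions of blocks 4 and 5, and backgrounds lie below it at 30 of 34 regions. With the nearest summit instead, pileups were higher at 13 of 15 regions of block 4 and 5 of 5 of block 5.

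Many peaks of block 3 stood at the lowest background. In OE-KDM4A 36 of its 50 peaks (72.0%) did, against 2 of 5 in block 1, 1 of 18 in block 2 and none of the 111 peaks of blocks 4 and 5. Over the whole window the count was 47 of 194 (24.2%, 18.4 to 30.9), beside 49.2% of the whole list. In NC it was 1 of 43 (2.33%, 0.0589 to 12.3), beside 8.24%. Among the isolated OE-KDM4A peaks it was 8 of 10. The median background of the OE-KDM4A peaks was 5.06 in block 2, 0.905 in block 3, 7.003 in block 4 and 2.33 in block 5. In NC it was 13.6, 2.44, 33.6 and 70.7. The order of the blocks by background was thus not the same in both lists, with block 5 the highest of these 4 in NC and below blocks 2 and 4 in OE-KDM4A.

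The isolated peaks had low −log10 q values for the window. Their medians were 3.58 in OE-KDM4A and 2.58 in NC, against 17.0 and 12.9 over the window. The whole lists had medians of 3.58 and 3.83. The 10 isolated peaks of OE-KDM4A had fold enrichments from 4.20 to 8.22 and −log10 q values from 1.85 to 12.1. The 3 in NC ran from 4.01 to 4.64 and from 2.23 to 3.25. None was called in both lists, and all had 1 summit. The strongest, from 39708640 to 39708747 in OE-KDM4A with a pileup of 20 fragments, was the only isolated peak inside the gene-free stretch, between blocks 2 and 3. The other isolated peaks of OE-KDM4A lay on the chromosome arms and had pileups of 7 to 14. One of them, from 34096621 to 34096768, lay 12.8 kb from PARD3, a cell polarity gene, and one from 45609016 to 45609150 lay 6.35 kb from ZFAND4.

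Zinc finger genes flank the gene-free stretch, and 3 of them held a peak. RefSeq lists 20 genes with a ZNF symbol in the window, 10 of them protein-coding and the others pseudogenes and antisense or divergent transcripts. None had an NC peak within its span or 5 kb of it, beside 0.712% of all ZNF symbols, and 3 had an OE-KDM4A peak (15%, 3.21 to 37.9), beside 5.13%. With 20 genes, neither count can be set apart from these shares. On the short arm, ZNF248 (37758538 to 37858103) held 1 OE-KDM4A peak, from 37823618 to 37823745, with a fold enrichment of 5.25 and a −log10 q of 3.58. On the long arm, the transcribed pseudogene ZNF37BP (42513510 to 42552870) held 1, from 42528226 to 42528369, with values of 7.87 and 9.01. ZNF487 (43436848 to 43523894) held 1 as well, from 43510599 to 43510734, with 5.88 and 5.30. All 3 peaks were single, had 1 summit and pileups of 9, 14 and 12 fragments, and were isolated from the blocks.

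The other protein-coding zinc finger genes had no peak within 5 kb. On the short arm, the nearest OE-KDM4A peak was 126 kb from ZNF25, 187 kb from ZNF33A and 271 kb from ZNF37A. ZNF33B, the long arm paralog of ZNF33A, was 45.8 kb from the OE-KDM4A peak in ZNF37BP. ZNF239 was 45.6 kb, ZNF485 95.7 kb and ZNF32 133 kb from the peak in ZNF487. ZNF22, far along the long arm, was 313 kb from an OE-KDM4A peak. In NC the distances were longer, from 293 kb for ZNF248 to 1546 kb for ZNF32. ZNF33A and ZNF33B, like ZNF37A and ZNF37BP, are near copies of each other, so reads from these pairs can be placed at the wrong member.

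The pseudogenes ZNF33BP1, ZNF37CP and ZNF33CP lay 28.4, 59.9 and 70.9 kb from the OE-KDM4A peak in ZNF248. The transcripts named for ZNF248, ZNF25, ZNF32 and ZNF22 (ZNF248-AS1, ZNF25-DT, ZNF32-AS1, ZNF32-AS2, ZNF32-AS3 and ZNF22-AS1) lay between 34.0 kb and 317 kb from one. From block 2 the nearest zinc finger gene was ZNF37A, 685 kb before the strongest NC peak, and from block 5 the nearest protein-coding gene was ZNF33B, 494 kb beyond the strongest OE-KDM4A peak. The zinc finger genes and the crowded blocks were therefore separate in both lists.

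Of the 44 protein-coding genes of the window, 2 had an NC peak within 5 kb (4.55%, 0.555 to 15.5), beside 2.45% of all RefSeq protein-coding genes. In OE-KDM4A 4 did (9.09%, 2.53 to 21.7), beside 5.34%. Both counts are near the shares over all protein-coding genes. The NC peaks lay in MARCHF8, a ubiquitin ligase gene (45475548 to 45475687, fold enrichment 4.64), and in GPRIN2 (46548773 to 46548943, 4.01). Besides ZNF248 and ZNF487, the OE-KDM4A peaks lay in ANKRD30A (37211286 to 37211523, 4.72) and 2.24 kb from the olfactory receptor gene OR13A1 (45317845 to 45318132, 5.25). None of these genes had a peak in both lists. Of 136 RefSeq promoter sequences in the window (GRCh38.p14, 250 bases before to 50 after a start), none was overlapped by a peak of either list. No sequence of a peak is shown, since no genome of this build was used here.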

How the data were processed

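H3K9me3 ChIP-seq peak lists of 2 libraries were analysed, and the input libraries were not analysed by themselves. The submitters' processing notes name hg38, Trimmomatic, MACS2 2.1.0 and Bowtie 1.1.2, but no settings. The deposited lists give, per summit, a fold enrichment (a linear ratio), −log10 p and −log10 q values and a score that is 10 times the −log10 q without decimals. The lowest −log10 q was 1.31 in both. Total reads were not used here, so depth is unknown.

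Lines of equal start and end were taken as 1 peak (69 of 1234 NC and 402 of 4187 OE-KDM4A lines were repeats), with the values of the line of highest −log10 q. Coordinates are 1-based. Genes came from RefSeq, GRCh38.p14. For MACS2 the fold is (pileup + 1) / (background + 1), and its p is a Poisson tail. On these formulas a whole-number pileup matched the −log10 p within 0.001 at all 237 peaks of the window. A background within 0.1% of the list's lowest counted as lowest.

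The window and the lists were chosen with earlier results of these data known. Named regions are, per list, the 10 of highest −log10 q, the 5 highest without overlap, the 3 widest and those with 3 or more summits, from which examples are given. Clusters of 5 or more peaks, ZNF genes and protein-coding genes with a peak are named too. The steps were tested on simulated data: 500 of 500 simulated pileups were recovered. Those pileups were simulated with the same formulas, so their recovery checks the calculation only, not whether the peak caller used these formulas. Software was scipy 1.17.1, numpy 2.4.6 and pandas 2.3.3 under Python 3.11.15, with matplotlib 3.10.9 for figures.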

Additional observations from a re-analysis of the deposited data

How the results depend on the processing

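Of 49 recalculated values, 30 stayed close to those reported (within 1.5 times for a count, within the 95% interval for a share) and 19 moved. With a −log10 q of at least 10 the window held 24 NC and 127 OE-KDM4A peaks, 84.3% of the latter clustered, and 0 zinc finger genes had a peak. With a fold enrichment of at least 5 it held 13 NC peaks, and 92.3% of NC and 8.33% of OE-KDM4A peaks were shared, a limit that is not equivalent between lists with different backgrounds. Joining peaks up to 1 kb apart left 36 in NC and 104 in OE-KDM4A. Counting peaks within 1 kb of the other list as shared gave 30.9% for OE-KDM4A, and within 10 kb 73.2% for OE-KDM4A and 90.7% for NC. Clustering at 50 kb gave 91.2% for OE-KDM4A, and 7 zinc finger genes lay within 50 kb of a peak. Without blocks 4 and 5, an alternative chosen after seeing the data, the window held 23 NC and 83 OE-KDM4A peaks. Then 60.9% of NC peaks were shared, 26.1% of NC and 49.4% of OE-KDM4A peaks were clustered, and 8.43% of OE-KDM4A peaks had several summits. With both lists at 1165 peaks by −log10 q, also chosen later, 145 OE-KDM4A peaks remained in the window and 21.4% of them were shared. No paired analysis was possible because each condition has 1 library. Depth limits what an uncalled region shows: a region without a peak in a list may still carry the mark.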

Other observations

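The peak with the highest background of the whole OE-KDM4A list lay in block 4, from 41859850 to 41859979, at 441.2 fragments under a pileup of 1550. In NC, 18 peaks of the whole list stood on a higher background than the highest of the window, 352.6 at 41879281 to 41879515. That NC peak had a fold enrichment of 1.95, the lowest of the 43, and still ranked 5 in the window by −log10 q.

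Of the 9 NC peaks without an OE-KDM4A partner, 5 had one within 10 kb. The strongest, from 38911599 to 38911742 in block 2, had a −log10 q of 13.1 and a fold enrichment of 4.53. The next, from 41412370 to 41412539 in block 3, had a −log10 q of 11.8 and a fold enrichment of 9.39, with a pileup of 16 over the lowest background of the NC list. It lay 5420 bp from an OE-KDM4A peak.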
